A study of Mus musculus with 6 samples.

Results

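The membrane mucins and sialomucins examined here are 7 mouse genes, Muc1, Muc4, Muc13, Muc15, Muc20, Cd164 and Emcn, of the 909 named genes on the array. They were chosen by gene name, by matching the RefSeq accession in each probe set's name, and together have 9 probe sets. Muc4 has 3 of these, and the one with the highest mean over the 6 arrays stands for it. The cells were MLE-15, a single line of mouse lung epithelium transformed by SV40 large T antigen, which all samples carry. One group of 3 arrays came from cells given PMA (phorbol 12-myristate 13-acetate, an activator of protein kinase C) and the other group of 3 from control cells. The sample labels name the cell line, the treatment and a replicate number, and the design text of the series gives 10 nM for 24 h. The study asked whether mucin genes, among others, are expressed in these cells and induced by PMA. Whether replicates are separate cultures is not stated, so each p-value reflects only how these arrays vary, which may be technical.

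Membrane mucins are anchored in the apical plasma membrane by a single transmembrane segment and hold out a long extracellular stretch rich in serine and threonine, which carries dense O-linked glycans. In the airway they form the layer next to the cell surface, under the mobile gel built by secreted mucins. Sialomucins such as Cd164 and Emcn are smaller glycoproteins with similar sialylated O-glycans and act mainly in cell adhesion and trafficking.

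Before the members' results, 1 feature of the data set has to be stated. The arrays with replicate number 1, a PMA and a control array, stood apart from the 4 arrays of numbers 2 and 3 in both groups. The labels do not say what a number stands for. The sample codes in the labels have no end letter for number 1, and end in A for number 2 and B for number 3. Values are RMA values on the log2 scale. Array medians ran from 5.64 to 5.71, and lower quartiles from 4.32 to 4.43. Of 13 listed lung epithelial markers only the surfactant proteins Sftpa1 and Sftpd were measured, with means of 4.65 and 4.70 over both genes in the number 1 arrays, against 4.29 to 4.44 in the other arrays, so the labelled cell type could hardly be checked. The Sftpa1 values, 3.29 to 3.89, lay below the lower quartile of every array. Epcam, Cdh1 and Nkx2-1 had no probe set named here.

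Promoter windows are shown for 3 members: Cd164 and Muc1, the members that differed between the replicate numbers, and Muc13, because its window holds the element through which phorbol esters are classically known to act. Each is the 250 bases before the RefSeq start in GRCm38.p6 on the plus strand. Capitals mark TGACTCA or its reverse complement TGAGTCA, the phorbol ester response element bound by AP-1, and GGGCGG or its reverse complement CCGCCC, the core of the GC box bound by Sp1.
Cd164, chr10:41519250-41519499: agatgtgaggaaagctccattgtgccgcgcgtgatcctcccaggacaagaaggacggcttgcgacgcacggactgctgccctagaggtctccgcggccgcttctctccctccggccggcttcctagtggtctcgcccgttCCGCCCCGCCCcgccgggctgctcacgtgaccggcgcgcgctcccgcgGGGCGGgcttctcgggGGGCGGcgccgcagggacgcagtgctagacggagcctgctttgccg
Muc1, chr3:89228806-89229055: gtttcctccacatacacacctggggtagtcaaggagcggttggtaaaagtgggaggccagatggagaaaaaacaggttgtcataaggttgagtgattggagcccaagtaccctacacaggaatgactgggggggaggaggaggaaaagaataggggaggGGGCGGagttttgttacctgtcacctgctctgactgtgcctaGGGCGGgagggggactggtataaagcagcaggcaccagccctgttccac
Muc13, chr16:33793787-33794036: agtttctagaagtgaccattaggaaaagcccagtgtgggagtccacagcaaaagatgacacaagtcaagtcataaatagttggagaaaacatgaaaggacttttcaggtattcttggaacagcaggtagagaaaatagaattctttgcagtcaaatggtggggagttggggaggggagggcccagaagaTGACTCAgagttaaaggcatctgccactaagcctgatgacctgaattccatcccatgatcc
The Cd164 window had 71.6% G and C and 4 matches to the GC box core, of which 2 overlap by a base, and the Muc1 window had 54.8% and 2 matches. A GC box core was present in 32.7% of 32851 such windows of mouse genes. The phorbol ester element began 61 bases before the start of Muc13, and a second window of Muc13, at a start further downstream, held another. That element was present in 4.46% of all windows and, among the 6 members with a window, in those of Muc13 only. A match is a description of the letters and not a bound site.

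The membrane mucins of the MUC family differed little between PMA and control cells. Muc1, the transmembrane mucin whose cytoplasmic tail takes part in signalling, had values of 5.68, 5.48 and 5.41 in PMA arrays 1, 2 and 3, against 5.84, 5.48 and 5.34 in control arrays 1, 2 and 3. In both groups the number 1 array was the highest, and the groups overlapped. Muc1 averaged 5.53 ± 0.14 in PMA and 5.55 ± 0.26 in control arrays (SD, n = 3 each), and the difference was -0.026 log2 units (SE 0.15). The 3 pairs of equal number gave -0.16, 0.0050 and 0.076, so the sign was not shared.

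Muc4, a large mucin with EGF-like domains that binds the receptor ErbB2, had values of 6.04, 6.19 and 6.07 in PMA arrays, against 6.11, 6.20 and 6.10 in control arrays. The spread over the 6 arrays was 0.16 log2 units, the narrowest of the 7 genes. The difference was -0.033 (SE 0.069), and the pairs gave -0.070, -0.0050 and -0.026. This probe set carries the suffix s, which marks probes shared by several transcripts. The Muc4 probe set without a suffix differed by 0.025 (SE 0.078) and the one with the suffix x, which marks probes that may cross-hybridise, by 0.070 (SE 0.10). The 3 Muc4 probe sets therefore did not share a sign, and each difference was smaller than its error.

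Muc13, a transmembrane mucin of the gut and airway epithelium, had values of 6.75, 6.66 and 6.64 in PMA arrays, against 6.58, 6.81 and 6.64 in control arrays. The lowest and the highest of these both lay in control arrays, so the PMA values fell inside the control range. Its difference was 0.0014 (SE 0.083), and 1.04% of probe sets had a smaller one. Its promoter window is the one above with the phorbol ester element. The 95% interval of the difference ran from -0.21 to 0.21.

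Muc20, which in human cells binds and dampens the receptor Met, had values of 5.29, 5.33 and 5.13 in PMA arrays, against 5.28, 5.36 and 5.21 in control arrays. The groups overlapped, and the difference was -0.035 (SE 0.082). Muc15, first known as a glycoprotein of the milk fat globule membrane in cattle, had values of 3.29, 3.15 and 3.09 in PMA arrays, against 3.20, 3.10 and 3.17 in control arrays. The difference was 0.021 (SE 0.076). All 6 Muc15 values lay below the lower quartile of their array. No background probe sets were used here, so neither presence nor absence of the Muc15 transcript can be called from them.

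**Figure D1:**
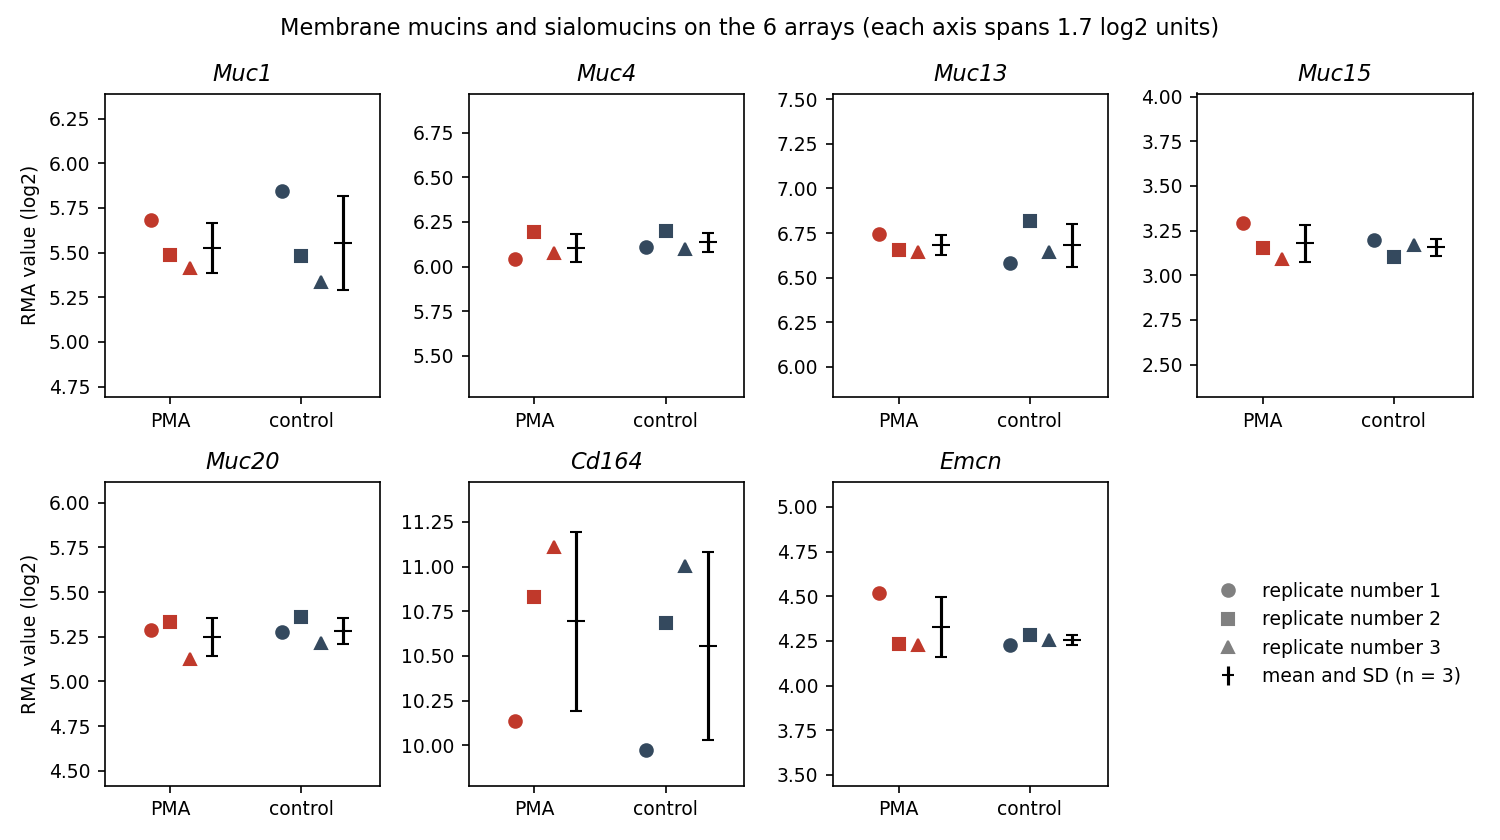
RMA values (log2, vertical axes, each spanning 1.7 log2 units) of the 7 genes in PMA (left) and control (right) arrays. Symbols give the replicate number, and bars the mean and SD of 3 arrays. The PMA and control points overlap in every panel, and Cd164 is lowest in number 1 of both groups.

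Of the sialomucins, Cd164 (endolyn), which cycles between the cell surface, endosomes and lysosomes and in human blood progenitors takes part in adhesion, had the brightest signal against its array. Its values were 10.14, 10.83 and 11.11 in PMA arrays 1, 2 and 3, against 9.98, 10.68 and 11.00 in control arrays 1, 2 and 3. The groups overlapped widely, but each PMA array was higher than the control array of the same number. Cd164 averaged 10.69 ± 0.50 in PMA and 10.55 ± 0.53 in control arrays (SD, n = 3 each), so PMA minus control was 0.14 log2 units (SE 0.36). Pair by pair it was 0.16, 0.15 and 0.11. Among all probe sets, 23.1% had 3 pairs of the same sign, and among the 7 members 2 did, Cd164 and Muc4.

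Emcn (endomucin), a sialomucin best known from venous and capillary endothelium, had values of 4.52, 4.23 and 4.23 in PMA arrays, against 4.22, 4.28 and 4.25 in control arrays. PMA array 1 stood above the other 5 arrays, which lay between 4.22 and 4.28. The difference was 0.073 (SE 0.098), with pairs of 0.30, -0.051 and -0.026, and without the number 1 arrays it was -0.039. The Emcn value was below the lower quartile of the array on 5 of the 6 arrays. Among the other endothelial markers, Pecam1, Vcam1, Sele, Selp and Cd34 were measured, with a mean value of 5.68 in PMA array 1, against 5.69 in control array 1. Of these, Selp (6.20, against 6.05) and Sele (4.47, against 4.26) were higher in PMA array 1, and Vcam1, Pecam1 and Cd34 were lower. Their part in the Emcn value was not tested. The number 1 pair gave a PMA difference that was 0.33 log2 units (SE 0.12) above that of numbers 2 and 3, and this did not pass the adjustment over all probe sets by limma (adjusted p = 0.743, unadjusted p = 0.0293). In that interaction test 0 of the 7 members passed and 1, Emcn, had an unadjusted p under 0.05. Of all 1246 probe sets 0.0803% passed, and 70 had an unadjusted p under 0.05.

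For PMA against control, 0 of the 7 members passed by limma (Benjamini-Hochberg adjusted p under 0.05), against 0.0% of all 1246 probe sets. None had an unadjusted p under 0.05, against 4 of all probe sets, the smallest being 0.490, and the adjusted p was 0.999 for each. The difference was above 0 in 4 members and below 0 in 3, with a median of 0.0014 log2 units, against a median of 0.0033 over all probe sets. The median absolute difference was 0.033 in the members and 0.050 in all probe sets. The PMA arrays lay wholly above or below the control arrays in 0 of the 7 members, against 3.37% of all probe sets. In bulk RNA, fewer cells making a transcript and less of it per cell cannot be told apart.

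The precision of these differences depended on the treatment of the replicate number. Without a block the 95% interval lay within 1 log2 unit of 0 for 6 members, while for Cd164 it ran from -0.77 to 1.04, a ratio of 0.588 to 2.06. A fit that blocks on the number, and so takes out the distance of number 1, again called 0 members by limma, against 0.0% of all probe sets. At an unadjusted p under 0.05 there were 0 members, against 42 of all 1246 probe sets. The blocked intervals ran from -0.19 at the lowest, for Muc1, to 0.28 at the highest, for Cd164. For Cd164 the blocked interval of the ratio of PMA to control was 0.996 to 1.22, with an adjusted p = 0.992 and an unadjusted p = 0.0587 by limma. The smallest p in this fit among the members was that of Cd164. With a term for number 1 alone, the Cd164 interval was -0.081 to 0.36 (unadjusted p = 0.189 by limma). Without the number 1 arrays the Cd164 difference was 0.13, with an interval of -0.18 to 0.44 (unadjusted p = 0.365 by limma). Over all probe sets, arrays of the same number correlated at 0.041 once number 1 was set aside. Apart from the distance of number 1, the pairing thus had little evidence over all probe sets. For Cd164 alone, number 3 was above number 2 in PMA arrays (11.11, against 10.83) and in control arrays (11.00, against 10.68).

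**Figure D2:**
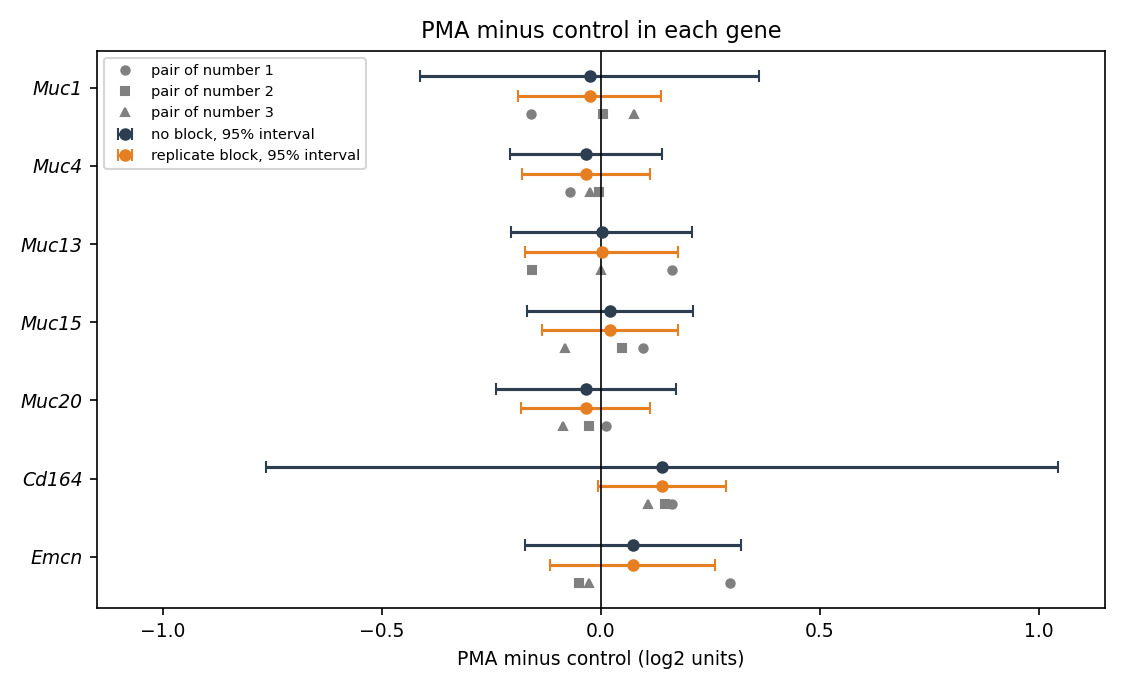
PMA minus control in log2 units (horizontal axis) for each gene, with the 95% interval without a block (dark) and with the replicate number as a block (orange), and the 3 pairs of equal number (grey). All intervals include 0, and the Cd164 interval narrows from the widest of the 7 to -0.0064 to 0.28.

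Between the replicate numbers, 2 members differed, in opposite directions. Cd164 averaged 10.06 in the 2 number 1 arrays, against 10.91 in the 4 arrays of numbers 2 and 3. The difference was -0.85 log2 units (SE 0.10; 95% interval -1.08 to -0.62), a ratio of 0.555, with adjusted p = 6.7e-05 by limma with PMA as a term. It was -0.83 within PMA arrays and -0.87 within control arrays. Both number 1 arrays lay below all 4 others.

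Muc1 averaged 5.76 in the number 1 arrays, against 5.43 in the other 4. Muc1 was thus higher by 0.33 log2 units (SE 0.078; 95% interval 0.16 to 0.51), a ratio of 1.26. Its adjusted p by limma was 0.00535. The difference was 0.23 within PMA arrays and 0.43 within control arrays, and both number 1 arrays lay above all 4 others. The call rested on control array 1, since without it the Muc1 difference was 0.23 with an adjusted p = 0.121 by limma.

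This comparison sets 2 arrays against 4 and was proposed with earlier results of these data known. By limma 2 of the 7 members passed, or 28.6%, against 41.7% of all probe sets. Of the members 1 was higher, against 27.5% of all probe sets, and 1 lower, against 14.1%. The members' median absolute difference was 0.12 log2 units, against 0.17 over all probe sets, and the median difference 0.025, against 0.079. The other 5 members had adjusted p-values of 0.212 or more. Of these, Muc15 had number 1 values of 3.20 and 3.29, against 3.09 to 3.17 in the rest, which did not overlap, as was also true of 55.9% of all probe sets. Its difference was 0.12 (SE 0.069). Emcn differed by 0.13 (SE 0.084), and it was 0.29 within PMA arrays and -0.042 within control arrays. Without control array 1 the Emcn difference was 0.29 and passed (adjusted p = 0.0386 by limma). Muc4, Muc13 and Muc20 differed by -0.064, -0.025 and 0.025, each less than its standard error. Their ranges over the 6 arrays, with those of Muc15 and Emcn, were 0.16 to 0.30 log2 units, against a median range of 0.34 over all probe sets. The Muc4 probe set without a suffix differed by -0.038 (SE 0.079) and the one with the suffix x by 0.033 (SE 0.094). The Muc4 probe sets thus did not share a sign in this comparison either.

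**Figure D3:**
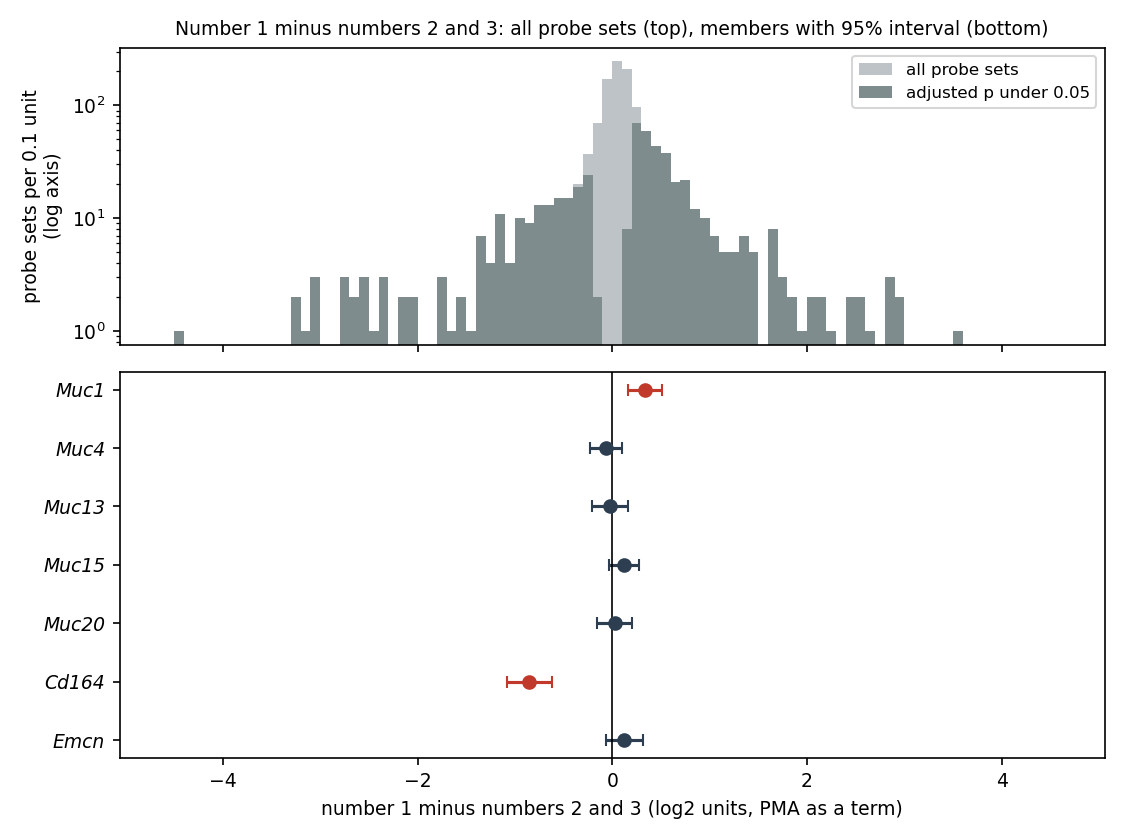
Number 1 minus numbers 2 and 3 in log2 units (horizontal axis). The upper panel counts all 1246 probe sets on a log axis, with those past the adjusted threshold in dark grey, and the lower panel gives each gene with its 95% interval. Cd164 at -0.85 and Muc1 at 0.33 (red) are the members whose adjusted p passed.

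Cd164 had unequal values in numbers 2 and 3 as well, without passing the test. It averaged 11.06 in number 3, against 10.76 in number 2, and the difference was 0.30 log2 units (SE 0.078), larger than that of 98.6% of probe sets. The p-values by limma were far apart (adjusted p = 0.902, unadjusted p = 0.00434). In both PMA and control cells the order of the Cd164 level was thus number 3, number 2, number 1, and number 1 passed against number 2 alone (-0.70) and against number 3 alone. Of the 7 members 0 passed between numbers 3 and 2, where 0.0% of all probe sets did. At an unadjusted p under 0.05 there was 1 member, Cd164, against 61 of all 1246 probe sets. The comparison was added after the values had been seen.

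The genes whose pattern over the 6 arrays was most like that of Cd164 were Eif5, a translation initiation factor, Slc35a3, the Golgi transporter of UDP-N-acetylglucosamine, and Met, the hepatocyte growth factor receptor. Their Pearson correlations with Cd164 were 0.997, 0.995 and 0.994. Over the 4 arrays of numbers 2 and 3 alone the correlations were 0.992, 0.970 and 0.989. For Muc1 the 3 most like genes were Il1f9, an interleukin 36 cytokine, Bmpr2, a receptor of bone morphogenetic proteins, and Cxcl15, a lung chemokine of mice. Their correlations with Muc1 were 0.992, 0.991 and 0.989, and 0.919, 0.975 and 0.871 over the 4 arrays. These describe 6 arrays that share the number 1 distance. The genes were picked over all 6 arrays, which include these 4, so the 4-array values are not a separate check. No share over all genes was computed for the 4 arrays. Over the 6 arrays, 9.25% of the 908 other named genes had a correlation over 0.9 with Cd164 and 17.2% with Muc1. The probe sets of Slc35a3, Met and Cxcl15 carry the suffix s. So do those of Muc5ac, B3gnt3, Galnt12, Lgals1, Podxl2, Glycam1, St3gal4 and Havcr1, which are named below.

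**Figure D4:**
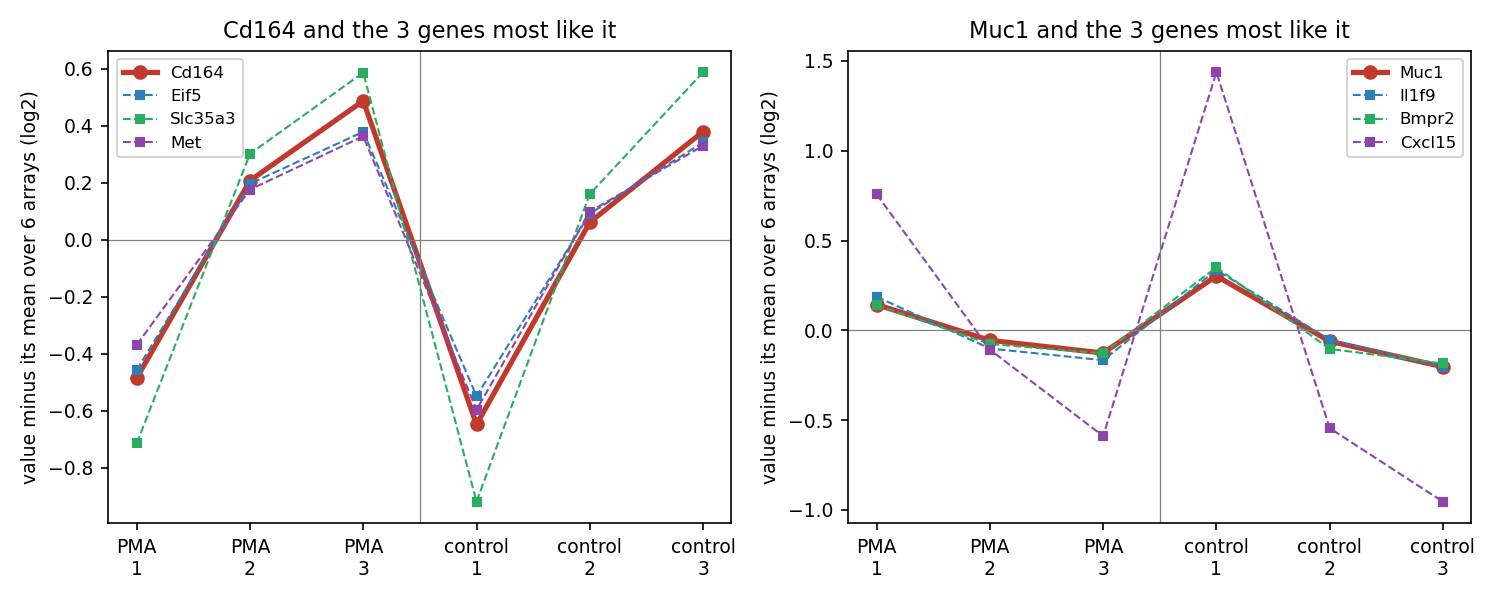
Values minus their mean over the 6 arrays (log2, vertical axis) for Cd164 (left) and Muc1 (right), in red, with the 3 genes of highest correlation to each, PMA arrays on the left and control arrays on the right of each panel. Lines join values of 1 gene and give no order of replicates. Cd164, Eif5, Slc35a3 and Met are lowest in number 1 of both groups.

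Other mucins and the genes that build and bind mucin-type glycans were read in the same way. Over all probe sets 27.5% passed as higher in number 1 and 14.1% as lower. Of the 4 measured genes in the list of other mucins, of 17 listed, 2 were lower in number 1, the gel-forming mucins Muc5ac (-2.59) and Muc5b (-1.13). The other two were higher, the oviduct glycoprotein Ovgp1 (0.74) and Mcam (0.31), an adhesion molecule of the immunoglobulin family that also bears the name MUC18. The list's median was -0.41, against 0.079 over all probe sets. Of 6 other sialomucins 0 passed, against 41.7% of all probe sets, with a median of -0.070. Podxl2, a podocalyxin relative, was the furthest from 0, at 0.27 (SE 0.099), followed by Glycam1, a selectin ligand, at 0.16 (SE 0.093).

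The polypeptide GalNAc-transferase family, which includes the enzymes that add the first sugar of mucin O-glycans, had 19 measured genes. Of these, 5 were higher in number 1, against 27.5% of all probe sets, and 2 lower, against 14.1%. The other 12 did not pass (list median 0.079). Galnt10 averaged 8.50 in number 1, against 7.17 in numbers 2 and 3, and Galnt12 8.85, against 7.70. Of 6 genes for the O-glycan cores 4 were lower, against 14.1% of all probe sets, and 0 higher, against 27.5% (median -0.61). B3gnt3, which extends core 1, differed by -1.40 (SE 0.11) and Gcnt3, which makes core 2 and core 4 branches, by -1.33 (SE 0.074). Of 7 sialyltransferases that act on O-glycans 3 were higher, against 27.5% of all probe sets, and 0 lower, against 14.1% (median 0.15). The furthest from 0 were St6galnac2 at 2.82 (SE 0.078) and St3gal1 at 1.17 (SE 0.13).

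Of 14 measured partners of membrane mucins and sialomucins, 5 were higher and 3 lower in number 1 (median 0.060). Over all probe sets 27.5% were higher and 14.1% lower. The galectin Lgals1 differed by 1.68 (SE 0.066) and Cxcr4, the chemokine receptor with which CD164 associates in human cells, averaged 6.33 in number 1, against 4.83 in numbers 2 and 3. Cxcr4 thus lay higher where Cd164 lay lower. Met, the partner of MUC20 in human cells, differed by -0.72 (SE 0.091), while Muc20 itself differed by 0.025 (SE 0.082). Some markers of other cell types also differed with the number. The 5 endothelial markers other than Emcn averaged 5.68 and 5.69 in the number 1 arrays, against 6.32 to 6.42 in the rest, and Pecam1 (-1.37), Vcam1 (-1.31) and Sele (-1.13) were lower, Selp (0.39) was higher and Cd34 (-0.080) did not pass. The 9 leukocyte markers averaged 4.78 and 4.94, against 5.14 to 5.20. Their median difference was nonetheless 0.018, with 5 markers higher and 4 lower in number 1. Of these markers 1 passed, Mrc1 (-2.74), against 41.7% of all probe sets. The next, Cd209a, differed by -0.17 and did not pass. In the lung epithelial list Sftpa1 passed at 0.52 and Sftpd, at 0.13, did not. The Sftpa1 values, 3.29 to 3.89, lay below the lower quartile of the array on all 6 arrays. Ptprc, Cdh5 and Kdr had no probe set named here. The part of these markers in the Cd164 and Muc1 differences was not tested.

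For PMA against control, the 2 genes furthest from 0 in each list were Muc5ac (0.18) and Mcam (0.13) among other mucins, and Podxl2 (0.16) and Havcr1 (0.085) among other sialomucins. They were Galnt10 (0.16) and Galntl6 (0.13) among GalNAc-transferases, B3gnt3 (-0.17) and B3gnt6 (0.068) among core enzymes, and St3gal1 (0.21) and St3gal4 (0.14) among O-glycan sialyltransferases. Cxcr4 (0.21) and Siglech (-0.15) were the furthest among partners. The Siglech probe set carries the suffix x, and the difference was -0.0023 without probe sets of suffix s or x and -0.030 as the mean of its probe sets. Among the marker lists they were Vcam1 (0.13) and Emcn for endothelium, with Cd34 (0.027) next, Mrc1 (0.38) and Siglech for leukocytes, and Sftpd (-0.042) and Sftpa1 (-0.032) for lung epithelium. None passed by limma, and each had an adjusted p = 0.999. List medians ran from -0.037 for lung epithelium to 0.11 for the O-glycan sialyltransferases, against 0.0033 over all probe sets. All measured genes lay above 0 among these sialyltransferases (7 of 7), other sialomucins (6 of 6) and other mucins (4 of 4). Lung epithelium had 2 of 2 below 0, and the remaining lists had both signs. No share over all probe sets was computed for these counts of signs. Some differences were far under their error, as for Muc5ac (SE 1.06), and others over it, as for Havcr1 (SE 0.070). Muc5ac was -0.13 without the number 1 arrays.

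**Figure D5:**
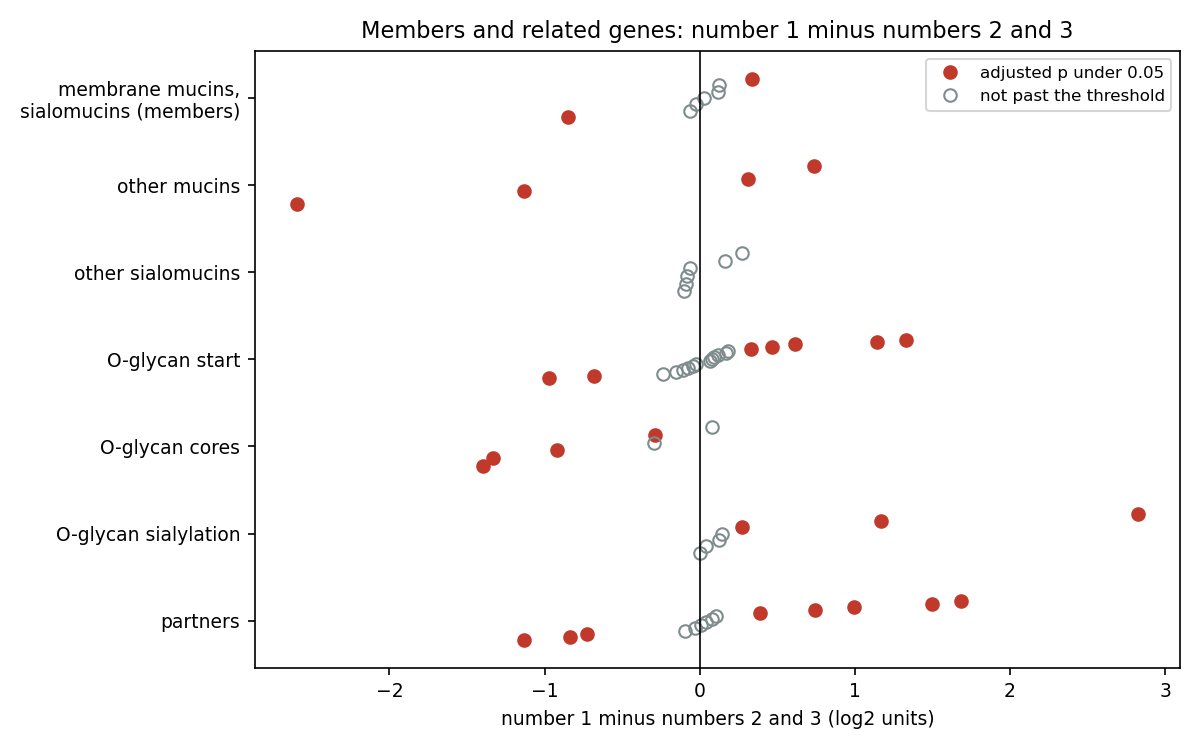
Number 1 minus numbers 2 and 3 in log2 units (horizontal axis) for every measured gene of the members' list and 6 related lists, with genes past the adjusted threshold of 0.05 filled. The members other than Cd164 and Muc1 lie near 0, while Muc5ac at -2.59 and St6galnac2 at 2.82 lie at the ends.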

How the data were processed

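The authors' deposited values are on the log2 scale, 1 per probe set and array, and were made with RMA, per the submitters' processing notes. RMA subtracts background, brings all arrays to 1 distribution by quantiles and combines the probes of a set, so a shift over all its probes would not show. The probe sets used here did not share 1 distribution. Lower quartiles were 4.43 and 4.41 in the number 1 arrays, against 4.32 to 4.38 in the rest. The median difference of number 1 over all probe sets was 0.079. The sources used here give neither its version nor the array's name. Per the labels' protocols, biotinylated cRNA was made from total RNA. The number of arrays limits the precision.

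Of 1246 probe sets, 963 were named by RefSeq accession without version (RefSeq genes of GRCm38.p6), covering 909 genes, and 283 stayed unnamed. The probe set with the highest mean stood for a gene. Promoter windows are RefSeq's, in GRCm38.p6.

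PMA was compared with control in limma 3.58.1 (R 4.3.3, lmFit and eBayes), Benjamini-Hochberg adjusted over all 1246 probe sets, threshold 0.05. Number 1 against numbers 2 and 3 had PMA as a term, and an interaction term compared the PMA difference of number 1 with that of the others. Number 3 against number 2 was added after seeing the data. SE is limma's moderated standard error. Arrays of the same number correlated at 0.956, 0.815 and 0.912 in their deviations from group means. All were over 0.1, so the number was also fitted as a block. Unequal numbers were as alike, at 0.838 for PMA array 2 with control array 3 and 0.886 for PMA array 3 with control array 2. These values alone therefore do not show that numbers 2 and 3 were paired. With number 1 set aside the correlation of equal numbers was 0.041. The fits were tested on simulated data.

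The members, lists and comparisons were chosen with earlier results of these data known. The rule for names took all members, the 2 genes of largest absolute difference in each other list, any listed gene passing for PMA, and the 3 genes most like each member that differed between numbers. Other genes are named as examples chosen after their values were seen, or as markers without a probe set. Alternatives were another variance prior, recentred or renormalized arrays, filters on dim or shared probe sets, averaged probe sets, left-out arrays and other terms for the number.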

Additional observations from a re-analysis of the deposited data

How the results depend on the processing

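The limits are 3 arrays a group, 1 pair of arrays apart from the rest and no measure of signal over background, so changes in dim probe sets such as those of Muc15 and Emcn may go unseen. For PMA against control the count was 0, over all probe sets and over the members, under every alternative run, and the replicate block changed no call. Cd164 for number 1 against the rest kept its sign and passed under every alternative, its smallest size being -0.70, against number 2 only. Muc1 kept its sign, from 0.23 to 0.43, and passed in all but 2, without control replicate 1 and in PMA arrays only (0.23), where 1 member passed. Muc15 and Emcn gave no value when the dimmest 25% of probe sets were removed.

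Differences near 0 changed sign. Without the number 1 arrays, the PMA differences were 0.041 for Muc1, -0.079 for Muc13, -0.016 for Muc15, -0.039 for Emcn and -0.13 for Muc5ac. Muc13 gave -0.011 with arrays centred on their medians and -0.013 renormalized. Muc4 gave 0.021 as the mean of its probe sets and 0.025 without suffix s or x. Leaving out 1 array at a time gave PMA differences from -0.13 to 0.12 for Muc1, -0.078 to -0.0029 for Muc4, -0.047 to 0.069 for Muc13, -0.036 to 0.066 for Muc15, -0.076 to 0.027 for Muc20, -0.15 to 0.42 for Cd164 and -0.025 to 0.12 for Emcn. For the related genes these were -0.22 to 0.66 for Vcam1, -0.0098 to 0.082 for Cd34, -0.64 to 1.19 for Mrc1, -0.11 to 0.0035 for Sftpd, -0.19 to 0.15 for Sftpa1, -0.64 to 0.30 for B3gnt3, -0.13 to 0.65 for St3gal1, -0.26 to 0.62 for Galnt10, -0.84 to 0.89 for Muc5ac and -0.28 to 0.72 for Cxcr4. They kept their sign at 0.0052 to 0.28 for Mcam, 0.057 to 0.28 for Podxl2, 0.069 to 0.21 for St3gal4, 0.071 to 0.19 for Galntl6, 0.027 to 0.10 for B3gnt6, 0.045 to 0.13 for Havcr1 and -0.19 to -0.13 for Siglech. Leaving out 1 array unbalances the numbers between the groups, which moves genes that differ with number 1.

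For number 1 against the rest, leaving out 1 array gave 403 to 543 called probe sets, 2 members called each time (Cd164 and Emcn without control replicate 1, otherwise Cd164 and Muc1), and differences of -0.15 to 0.095 for Muc13, -0.024 to 0.064 for Muc20, -0.042 to 0.29 for Emcn and -0.021 to 0.34 for Glycam1. Muc13 was 0.019 with arrays renormalized, 0.095 in PMA arrays only and 0.022 against number 3 only. Muc20 was -0.014 centred, -0.025 renormalized, -0.0093 in control arrays only and -0.063 against number 2 only. Emcn was -0.042 and Glycam1 -0.021 in control arrays only. The comparisons with a single number were added after seeing the data. Podxl2 passed in 4 alternatives, Cd209a in 2 and Glycam1 in 2. With a variance prior that follows the mean level, 0 probe sets passed for the dependence of the PMA difference on the number, against 1. The cause was not tested for these reversals.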
